A study of Mus musculus with 6 samples.

Results

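Striatal medium spiny neuron genes were followed in bulk RNA sequencing of mouse brain. The set held 9 genes, chosen by symbol and all found among the 78298 rows of the table. Drd1, Pdyn and Tac1 mark the direct pathway, Drd2, Adora2a and Penk mark the indirect pathway, and Ppp1r1b, Rgs9 and Pde10a are shared by both. Polyadenylated RNA of male mice was sequenced, with 3 wild-type animals and 3 Top2b-low homozygotes. The extraction text names the left brain and the design text the whole brain. Top2b encodes a type II DNA topoisomerase that postmitotic neurons express. The Top2b-low allele was made with CRISPR/Cas9 and carries an auxin-inducible degron tag, a peptide that marks a protein for breakdown when auxin is present, at the start of the coding sequence. No drug was given to either genotype. The labels give the age both as 10 weeks and as 3.5 months, and all mice share this ambiguity. The Top2b-low replicate 3 library has a name ending in dNdN where the names of replicates 1 and 2 end in Homo. The labels do not explain that ending. The comparison asked how lower Top2b expression changes the adult brain transcriptome.

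Medium spiny neurons are the GABAergic projection neurons that make up most of the striatum. Direct-pathway neurons carry the D1 dopamine receptor and release dynorphin and substance P onto the output nuclei of the basal ganglia. Indirect-pathway neurons carry the D2 dopamine receptor and an adenosine receptor, release enkephalin and project to the external pallidum. Dopamine raises cyclic AMP through D1 and lowers it through D2, and the phosphoprotein DARPP-32 carries that signal to protein phosphatase 1 in both classes. In tissue outside the striatum, Tac1 and Pdyn are also expressed by hypothalamic neurons, and Drd2 by midbrain dopamine neurons and the pituitary.

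Promoter sequences are shown for a direct-pathway gene whose genotype groups were apart (Drd1), a direct-pathway gene whose groups overlapped (Tac1) and an indirect-pathway receptor (Drd2). Each is the 250 bases before the gene's start in RefSeq, build GRCm38.p6, written 5′ to 3′ on the gene's strand. For Drd1, which has 2 starts in that table, the window is at chr13:54055659-54055908 on the minus strand. The Tac1 window is at chr6:7554811-7555060 on the plus strand and the Drd2 window at chr9:49340153-49340402 on the plus strand. Capitals mark the core of the cyclic AMP response element, TGACG or its reverse complement CGTCA, searched on both strands.
Drd1: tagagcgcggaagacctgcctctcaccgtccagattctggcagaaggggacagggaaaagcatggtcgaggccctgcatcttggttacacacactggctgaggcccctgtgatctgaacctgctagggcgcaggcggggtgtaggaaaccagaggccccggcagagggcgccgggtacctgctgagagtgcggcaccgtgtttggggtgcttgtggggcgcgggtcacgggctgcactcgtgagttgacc
Tac1: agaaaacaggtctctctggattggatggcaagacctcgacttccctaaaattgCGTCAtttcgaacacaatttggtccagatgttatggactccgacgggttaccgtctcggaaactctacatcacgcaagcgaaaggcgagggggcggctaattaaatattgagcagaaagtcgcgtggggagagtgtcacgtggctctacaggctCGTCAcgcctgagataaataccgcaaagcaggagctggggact
Drd2: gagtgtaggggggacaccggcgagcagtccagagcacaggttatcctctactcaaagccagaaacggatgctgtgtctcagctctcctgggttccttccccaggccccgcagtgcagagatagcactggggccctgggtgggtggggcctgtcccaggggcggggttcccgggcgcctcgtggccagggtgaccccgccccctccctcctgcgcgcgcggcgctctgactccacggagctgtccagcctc
The core occurred 2 times in the Tac1 window, beginning 197 and 43 bases before the start. It was not among the letters of the Drd1 and Drd2 windows. Of all 32851 windows of this length in the table, 17.8% held the core, so a match is a description of the sequence. RefSeq windows were matched for 6 of the 9 genes.

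Library totals ran from 16963067 to 35246703 reads, and the lowest value of any gene of the set in any library was 357 reads. Replicates were taken as separate animals, since the design text gives a number of mice for both genotypes. Top2b itself read 3160, 3014 and 2485 normalised counts across the wild-type mice against 2152, 2314 and 1965 across the Top2b-low mice, without overlap (limma adjusted p = 0.99997). Replicate 3 of each genotype has a library name that begins with N22, and these 2 libraries stood apart. The summed level of 4 cerebellar markers (Gabra6, Cbln3, Fat2, Pcp2) was 33.4 and 23.1 normalised counts in them and 10049 to 12996 in the other 4. In bulk tissue, fewer cells of a type and less RNA per cell cannot be told apart, which holds for every level below.

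**Figure D1:**
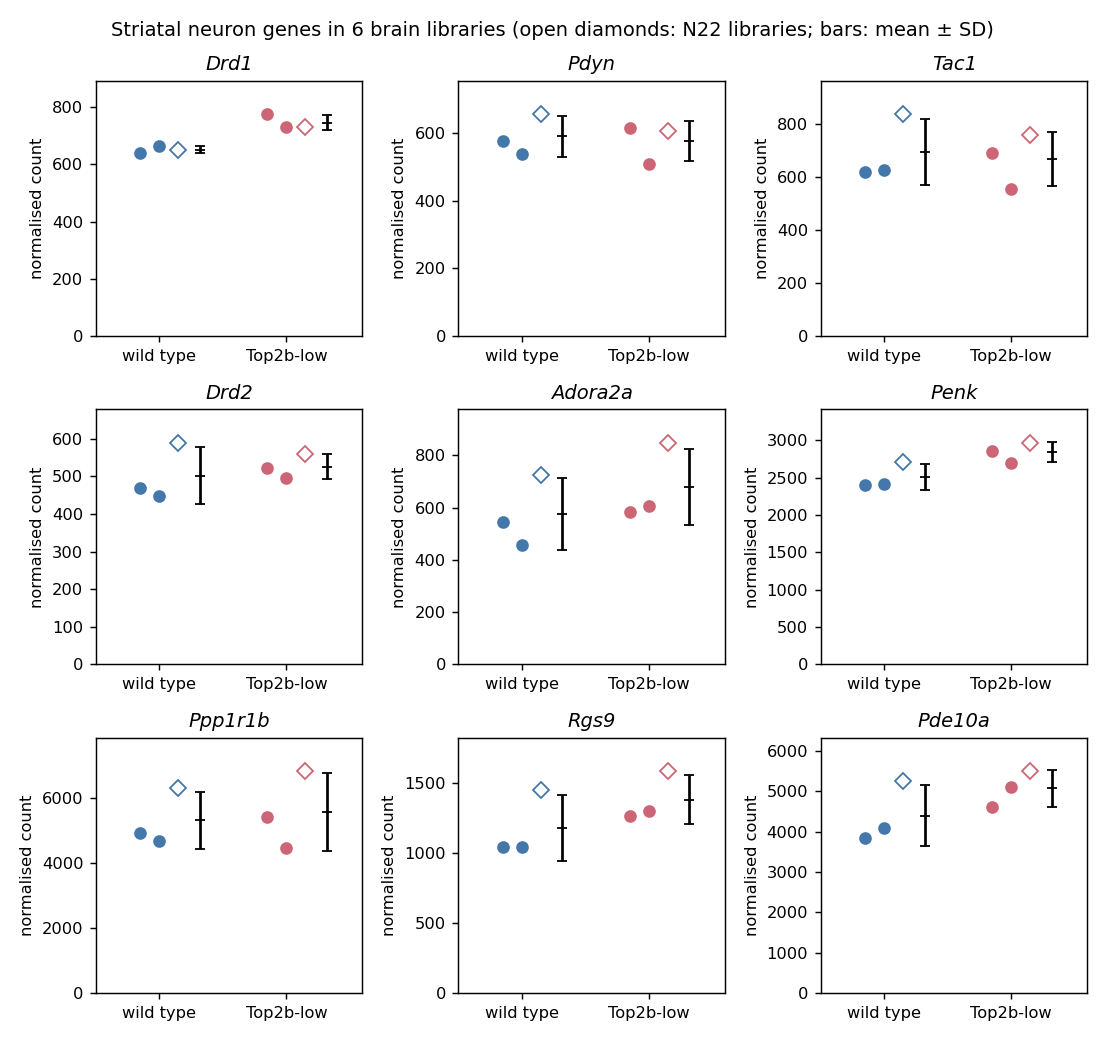
Normalised counts (linear axis from 0) of the 9 striatal genes in 3 wild-type (blue) and 3 Top2b-low (red) libraries. Each point is a library, open diamonds are the N22 libraries, and bars give the mean ± SD of each genotype. Drd1 is the gene whose genotypes do not overlap (641 to 664 against 729.6 to 775), and the N22 library is the highest of its genotype for most of the other genes.

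Among direct-pathway genes, Drd1 was higher in each Top2b-low library, while Pdyn and Tac1 overlapped. Drd1 (ENSMUSG00000021478, chromosome 13), the Gs-coupled dopamine receptor, read 641, 664 and 649 normalised counts across the wild-type mice (replicates 1, 2, 3) against 775, 729.6 and 731 across the Top2b-low mice. The lowest Top2b-low value thus lay above the highest wild-type value, and the N22 libraries sat within the range of their own genotype. The means were 652 ± 11.6 and 745 ± 26.1 (SD, n = 3 each), and the difference was 0.19 on the log2 scale with an SE of 0.08. That is 14.3% higher with a 95% interval of 0.523% to 30.0%. Drd1 was not called by limma (Benjamini-Hochberg adjusted p = 0.99997 over the whole table, unadjusted p = 0.0433). The two-sided exact permutation test gave p = 0.1, the smallest that 3 against 3 allows.

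Pdyn (ENSMUSG00000027400, chromosome 2), the precursor of dynorphin opioid peptides, read 577, 538 and 655 across the wild-type mice against 614, 509 and 606 across the Top2b-low mice. Its groups overlapped, with means of 589.9 ± 59.7 and 576 ± 58.6 (SD, n = 3 each). The log2 difference was −0.03 with a 95% interval of −0.31 to 0.24. Tac1 (ENSMUSG00000061762, chromosome 6), the precursor of substance P and neurokinin A, read 618, 627 and 836 across the wild-type mice against 689, 556 and 758 across the Top2b-low mice. The highest Tac1 value of each genotype was in its N22 library. Its means were 694 ± 124 and 668 ± 103 (SD, n = 3 each), with a log2 difference of −0.05 and a 95% interval of −0.43 to 0.33. For both precursors, Top2b-low replicate 2 had the lowest value of all 6 libraries.

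Among indirect-pathway genes, Penk stood highest in Top2b-low libraries relative to its spread. Penk (ENSMUSG00000045573, chromosome 4), the enkephalin precursor, read 2399, 2415 and 2707 across the wild-type mice against 2856, 2696 and 2965 across the Top2b-low mice. Only the wild-type N22 library reached into the Top2b-low range, by a margin of a few counts over Top2b-low replicate 2. The means were 2507 ± 174 and 2839 ± 135 (SD, n = 3 each), a log2 difference of 0.18. That is 13.3% higher (95% interval −0.682% to 29.3%), and Penk was not called by limma (adjusted p = 0.99997, unadjusted p = 0.0600). Adora2a (ENSMUSG00000020178, chromosome 10), the Gs-coupled adenosine receptor of indirect-pathway neurons, read 547, 455 and 725 across the wild-type mice against 582, 606 and 848 across the Top2b-low mice. In both genotypes its N22 library was far above the other 2. The Adora2a means were 575 ± 137 and 679 ± 147 (SD, n = 3 each), a log2 difference of 0.24 with an SE of 0.21. Drd2 (ENSMUSG00000032259, chromosome 9), the Gi-coupled dopamine receptor, read 470.1, 447 and 589.6 across the wild-type mice against 522, 497 and 561 across the Top2b-low mice. The 3 Top2b-low values lay inside the wild-type range, and the log2 difference was 0.08 with a 95% interval of −0.22 to 0.37.

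The shared signalling genes Rgs9 and Pde10a were higher in each Top2b-low library than in wild type replicates 1 and 2, but not higher in all of them than in wild type replicate 3. Rgs9 (ENSMUSG00000020599, chromosome 11), whose striatal protein speeds the end of G protein signalling at dopamine and opioid receptors, read 1039.7, 1044 and 1445 across the wild-type mice against 1260.1, 1294 and 1581 across the Top2b-low mice. The means were 1176 ± 233 and 1379 ± 177 (SD, n = 3 each), with a log2 difference of 0.24 and an SE of 0.15. Pde10a (ENSMUSG00000023868, chromosome 17), a phosphodiesterase that breaks down cyclic AMP and cyclic GMP in medium spiny neurons, read 3833, 4091 and 5266 across the wild-type mice against 4601, 5111 and 5497 across the Top2b-low mice. Its means were 4397 ± 764 and 5069.7 ± 449.6 (SD, n = 3 each), with a log2 difference of 0.22 and an SE of 0.13. Ppp1r1b (ENSMUSG00000061718, chromosome 11), which encodes DARPP-32, read 4924, 4682 and 6301 across the wild-type mice against 5402, 4446 and 6815 across the Top2b-low mice. Its lowest and highest values were both in Top2b-low mice, and its log2 difference was 0.06 with a 95% interval of −0.35 to 0.46. Penk, Ppp1r1b and Pde10a overlap genes on the opposite strand in the annotation, and whether counting used strand is not given in the labels. Those neighbours averaged at most 5.12 normalised counts.

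Of the 9 genes, 7 had a higher estimate in Top2b-low libraries, as had 8585 of all 17391 genes tested. By limma 0 of the 9 passed at an adjusted p under 0.05, the adjusted p being 0.99997 for each. Over all 17391 genes tested the count was also 0, which is 0%. At an unadjusted p under 0.05 it was 262 genes with limma (1.51%), 250 with edgeR (1.44%) and 168 with DESeq2 (0.966%), in either direction. Drd1 was the only gene of the set at an unadjusted p under 0.05 in limma, where the background was 0.512% of genes in that direction. It was also the only one without overlap between genotypes, against 2.70% of all genes tested in that direction and 5.74% in either. The median log2 difference of the 9 was 0.18, beside −0.0021 for all tested genes.

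Deviations of libraries sharing a replicate number correlated at 0.33, 0.35 and 0.68, so the genotypes were also set side by side within replicate pairs. Wild type 1 correlated as highly with Top2b-low 2 (0.37), so replicates 1 and 2 are matched by their numbers alone. Drd1 was higher by 20.9%, 9.84% and 12.5% in pairs 1 to 3, Penk by 19.1%, 11.6% and 9.52%, and Rgs9 by 21.2%, 24.0% and 9.43%. Pde10a (20.03%, 24.9% and 4.39%) and Adora2a (6.49%, 33.2% and 17.0%) were higher in all 3 pairs too. These 5 of 9 genes compare with 14.0% of all genes tested. Pdyn and Tac1 were higher in pair 1 and lower in pairs 2 and 3. With a term for the N22 names, the same 5 genes had an unadjusted limma p under 0.05, from 0.00311 for Rgs9 to 0.0166 for Drd1, where 2.78% of all genes did so in that direction and 5.81% in either. Their adjusted p ran from 0.568 to 0.725, so none passed, and 0% of all genes passed. Of the cortical excitatory markers, Slc17a7, Neurod6 and Tbr1 were also higher in all 3 pairs, and Cux2 was lower in pair 1. With the N22 term Slc17a7, Neurod6 and Tbr1 also had an unadjusted limma p under 0.05, while Cux2 did not. The pattern was thus not confined to the striatal genes.

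The genotype difference was examined inside and outside the N22 names. Among the 4 libraries outside N22, 8 of the 9 genes had a higher estimate in Top2b-low mice. Their log2 differences had a median of 0.20, beside −0.0055 for all genes tested. Rgs9 and Pde10a were at 0.29, Adora2a at 0.25 and Tac1 at −0.0080. The N22 pair holds 1 library per genotype, so its values have no test. There 6 were higher, led by Adora2a (0.23) and Drd1 (0.17), and Drd2 (−0.07), Pdyn (−0.11) and Tac1 (−0.14) were lower on the log2 scale. Limma's interaction of genotype and N22 is the log2 difference inside N22 minus that outside. It passed for 0 of the 9 genes, with 0 at an unadjusted p under 0.05. Over all genes it passed for 0.0230%, with a positive sign for 0.00575% and a negative sign for 0.0173%. The widest gap was that of Pde10a, a log2 difference smaller by 0.23 inside N22 with a 95% interval of −0.53 to 0.07 (unadjusted p = 0.112).

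**Figure D2:**
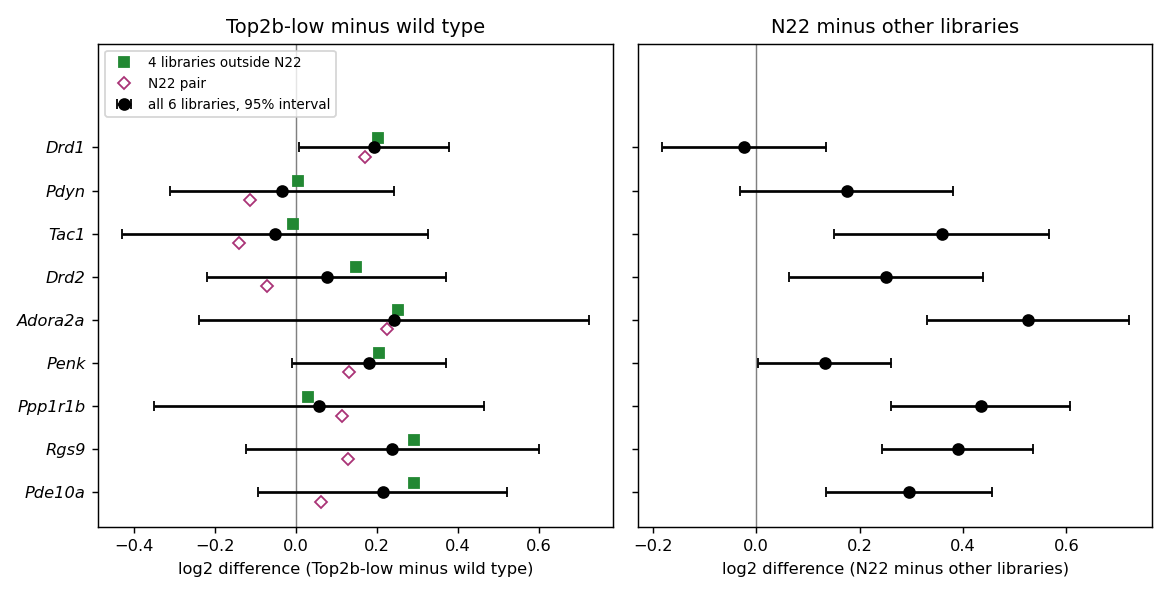
Log2 differences of the 9 genes, Top2b-low minus wild type (left) and N22 minus other libraries (right). Black points with bars are limma estimates over all 6 libraries with 95% intervals, green squares the 4 libraries outside N22 and open diamonds the N22 pair. In the left panel the interval of Drd1 alone lies above 0, and in the right panel Drd1 is the gene nearest to 0 (−0.02).

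By class, the indirect-pathway and shared genes were higher in Top2b-low libraries by 0.17 log2 units each on average and the direct-pathway genes by 0.04. These class means are descriptions without a test. The mean log2 level of the direct-pathway genes minus that of the indirect-pathway genes was −0.48, −0.38 and −0.57 across the wild-type mice against −0.47, −0.66 and −0.69 across the Top2b-low mice. The averages were −0.47 ± 0.09 and −0.60 ± 0.12 (SD, n = 3 each), and the genotypes overlapped through Top2b-low replicate 1. The indirect minus shared level was −1.74 ± 0.07 and −1.75 ± 0.04, a difference smaller than the spread between mice.

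**Figure D3:**
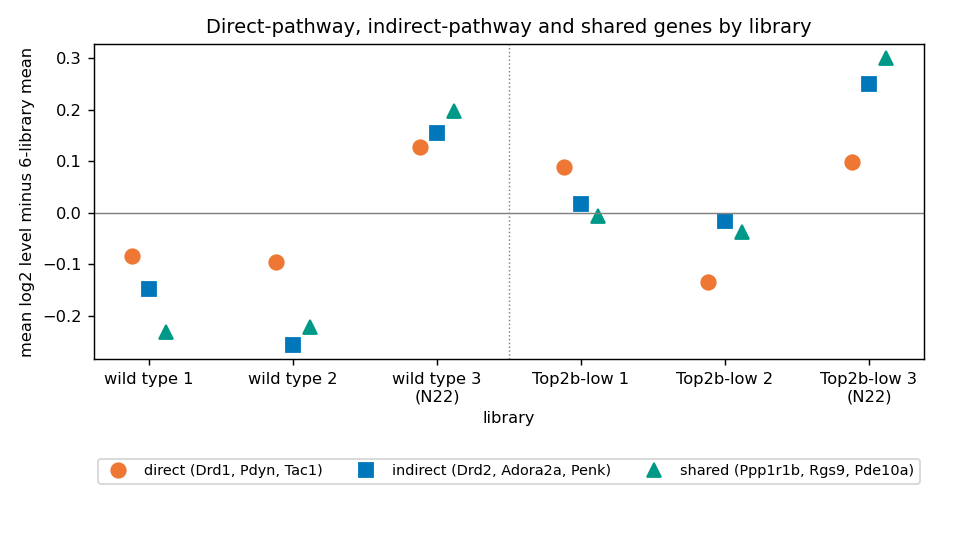
Mean log2 level of the direct-pathway (circles), indirect-pathway (squares) and shared genes (triangles) in each library, as the difference from the 6-library mean. Each symbol averages 3 genes, and the dotted line parts the genotypes. The N22 libraries are above 0 for all 3 classes, and Top2b-low replicate 2 is lowest for the direct-pathway genes (−0.13).

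Within libraries, both direct-pathway precursors had a lower ratio to Penk in Top2b-low mice, while that of Drd1 overlapped. A lower ratio to Penk without overlap was found for 18.0% of all genes tested other than Penk. Ratios of normalised counts within a library do not depend on the scaling between libraries, and 8 were computed, chosen after values were seen, of which 6 overlapped between genotypes and 2 did not. Pdyn over Penk was 0.241, 0.223 and 0.242 across the wild-type mice against 0.215, 0.189 and 0.204 across the Top2b-low mice. Tac1 over Penk was 0.258, 0.259 and 0.309 across the wild-type mice against 0.241, 0.206 and 0.256 across the Top2b-low mice. Neither of these ratios overlapped between genotypes, although Tac1 over Penk came close, at 0.2577 in wild type replicate 1 and 0.2558 in Top2b-low replicate 3. The levels of Pdyn and Tac1 themselves overlapped between genotypes, while Penk, the denominator, was 13.3% higher in Top2b-low mice. The receptor ratio Drd1 over Drd2 was 1.36, 1.48 and 1.101 across the wild-type mice against 1.49, 1.47 and 1.30 across the Top2b-low mice, and its genotypes overlapped. Drd1 over Penk was 0.267, 0.275 and 0.240 across the wild-type mice against 0.271, 0.271 and 0.246 across the Top2b-low mice, and overlapped too, as did Drd1 over Adora2a, Pdyn over Drd1, Tac1 over Drd1 and Penk over Adora2a.

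Values of tissue markers are given beside these precursors. The summed level of 6 hypothalamic markers (Avp, Oxt, Trh, Hcrt, Pmch, Nkx2-1) was 1125, 1296 and 1713 normalised counts across the wild-type mice against 1003, 99.5 and 69.2 across the Top2b-low mice. Top2b-low replicates 2 and 3, the libraries with these low sums, had less Pdyn and Tac1 than the wild-type libraries of the same number. Top2b-low replicate 3 had the lowest sum. Its Pdyn (606) was above wild type replicates 1 and 2 (577 and 538) and below wild type replicate 3 (655), the other N22 library. Its Tac1 (758) likewise was above wild type replicates 1 and 2 (618 and 627) and below wild type replicate 3 (836). All 6 hypothalamic markers had a lower estimate in Top2b-low mice and an unadjusted limma p under 0.05. Over all genes tested, 1.51% had such a p in either direction. Of the 6, 0 passed the adjusted test, and none was at 0 in any library. The 5 midbrain dopamine markers (Th, Slc6a3, Slc18a2, Ddc, Pitx3) summed to 1268, 899.9 and 1284 across the wild-type mice. Across the Top2b-low mice they summed to 925, 855 and 280, with Pitx3 at 0 in Top2b-low replicate 3. The 4 pituitary hormone genes (Prl, Gh, Cga, Tshb) ran from 12.5 to 18245 in wild type and from 0 to 1531 in Top2b-low libraries, with the highest sum in wild type replicate 3 and all 4 genes at 0 in Top2b-low replicate 2. The part of these tissues in the levels of Pdyn, Tac1 and Drd2 was not tested.

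Most of the 9 genes were higher in the N22 libraries, whichever the genotype. With genotype in the model, limma called 6 of 9 higher in N22 and 0 lower at an adjusted p under 0.05, where 28.0% of all genes were called, 11.3% higher and 16.7% lower. With quantile normalization the calls split into 2438 higher and 2377 lower, against 1963 and 2901. Without limma's intensity trend 2 of the 9 were called, Adora2a (adjusted p = 0.0387) and Rgs9 (adjusted p = 0.0386), and 2181 genes in all against 4864. Ppp1r1b (adjusted p = 0.0572), Tac1 (0.0903), Pde10a (0.0981) and Drd2 (0.106) then missed the threshold. Adora2a was 44.0% higher (95% interval 25.7% to 64.9%, adjusted p = 0.00217), at 725 and 848 normalised counts in N22 and 455 to 606 elsewhere. Ppp1r1b was 35.1% higher (adjusted p = 0.00307), Rgs9 31.0% (adjusted p = 0.00227), Tac1 28.3% (adjusted p = 0.0179), Pde10a 22.8% (adjusted p = 0.0135) and Drd2 19.0% (adjusted p = 0.049983). All 6 had both N22 libraries above the other 4, which held for 22.8% of all genes. Pdyn (12.9%, adjusted p = 0.187) and Penk (9.63%, adjusted p = 0.115) did not pass limma's test. Of 14 alternatives Penk was called in 1 and Pdyn in 0. Drd1 was 1.69% lower in N22, with a 95% interval of −11.9% to 9.75%, and its 2 N22 values lay inside the range of the other 4.

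The N22 contrast rests on 2 libraries, and leaving out single libraries ended some of its calls. Adora2a alone was called without each library in turn. Without wild type replicate 3 the count fell to 2, as Tac1, Drd2, Rgs9 and Pde10a were lost, the log2 difference of Drd2 going from 0.25 to 0.14 and that of Pde10a from 0.30 to 0.18. Those of Tac1 (0.36 to 0.29) and Rgs9 (0.39 to 0.31) changed less. Without Top2b-low replicate 3 the count was 3, as Tac1, Drd2 and Ppp1r1b were lost, with log2 differences of 0.43, 0.36 and 0.39. Tac1 was also lost without wild type replicate 1 (adjusted p = 0.0504), and Drd2 without wild type replicate 1 (0.102), wild type replicate 2 (0.110) or Top2b-low replicate 2 (0.0708). Drd2 lay at the threshold and also missed it with a pseudocount of 0.5 (limma adjusted p = 0.0501) and with DESeq2 (adjusted p = 0.0914). In all, Drd2 was called in 5 of 14 alternatives. In the same contrast the cerebellar markers had a median log2 difference of −8.87, all 4 called lower. The 4 cortical excitatory markers (Slc17a7, Neurod6, Tbr1, Cux2) had a median of 0.31, beside 0.30 for the 9 striatal genes, and 3 of the 4 were called higher. The part of the lower cerebellar marker levels in the striatal levels was not tested.

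Of 12 further shared striatal genes, 10 had a higher estimate in Top2b-low libraries and 0 passed, with a median of 0.09. Foxp1, a transcription factor of striatal and cortical neurons, read 1641, 1684 and 1535 across the wild-type mice against 1820.0, 1797 and 1887 across the Top2b-low mice, a log2 difference of 0.18 (SE 0.07, unadjusted p = 0.0436, limma adjusted p = 0.99997). Its genotypes did not overlap, as in 2.70% of all genes tested in that direction and 5.74% in either. Foxp2, a related transcription factor, did not overlap either but in the other direction, at 493.1, 529 and 492.8 across the wild-type mice against 479.9, 486 and 445 across the Top2b-low mice (log2 difference −0.10, unadjusted p = 0.286, limma adjusted p = 0.99997). Syndig1l had a log2 difference of 0.21 and overlapped, and Bcl11b, a transcription factor of medium spiny neurons, had one of 0.13.

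Of 7 further direct-pathway genes 4 had a higher estimate and 0 passed, with a median of 0.02. Chrm4, the M4 muscarinic receptor, had a log2 difference of 0.16. Isl1, a transcription factor of direct-pathway and of cholinergic neurons, read 64.4, 96.5 and 76.1 across the wild-type mice against 88.6, 41.3 and 39.6 across the Top2b-low mice, with low values in replicates 2 and 3. These are the libraries in which the hypothalamic sum was 99.5 and 69.2. All 5 cholinergic markers (Chat, Slc18a3, Slc5a7, Lhx8, Gbx1) had a lower estimate, 0 passed, and none was at 0 in a library. Their summed level ran from 388 to 565 in wild-type and from 250.3 to 491 in Top2b-low mice. The sum of Top2b-low replicate 2 was 420.04, inside the wild-type range. Lhx8 and Gbx1 did not overlap between genotypes, while Chat, Slc18a3 and Slc5a7 did. Of all genes tested, 5.74% were without overlap, counting both directions. Lhx8 read 49.8, 47.6 and 49.1 across the wild-type mice against 31.99, 23.1 and 14.8 across the Top2b-low mice. Gbx1 read 32.8, 38.9 and 36.3 against 23.4, 25.5 and 11.8. Their unadjusted limma p was 0.00712 and 0.0318, and the adjusted p was 0.99997 for both. The part of hypothalamic and cholinergic tissue in the Isl1 values was not tested. Of 5 further indirect-pathway genes that were tested, 3 had a higher estimate and 0 passed, with a median of 0.06, and the receptor gene Gpr6 had a log2 difference of 0.20. In the N22 contrast Gpr6 (0.43, adjusted p = 0.0455) and the transcription factor Sp9 (0.53, adjusted p = 0.0224) were called higher by limma. Ebf1 and Zfp521, direct-pathway transcription factors, were called lower (−1.54, adjusted p = 2.65e-05, and −1.58, adjusted p = 7.66e-06), and the other 5 direct-pathway genes of that list were not called. Both are also expressed outside the striatum. In the same libraries the cerebellar markers had a median of −8.87 with 4 of 4 called lower. The 5 hindbrain markers had one of −4.48 with 5 called lower. The 4 thalamic markers had one of −0.28, with 2 called lower and 1 called higher. The part of these tissues in the Ebf1 and Zfp521 values was not tested.

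Of 22 genes for G protein subunits, adenylyl cyclase, protein kinase A, phosphatases and phosphodiesterases, 16 had a higher estimate, 0 passed and the median was 0.05. The anchoring protein gene Akap5 (0.18), the G protein subunit gene Gng7 (0.14) and the cyclase gene Adcy5 (0.08) had the smallest unadjusted p of the list, 0.208 to 0.300. Of 5 enzymes and helpers that process peptide precursors, 2 had a higher estimate and 0 passed. Pcsk1, a prohormone convertase, read 1381, 1426 and 1260.2 across the wild-type mice against 1189, 1182 and 1193 across the Top2b-low mice, without overlap and with a log2 difference of −0.19 (SE 0.08, unadjusted p = 0.0470, limma adjusted p = 0.99997). No overlap between genotypes was found for 5.74% of all genes tested, counting both directions. Pcsk2, the other convertase, had a log2 difference of 0.13. Of 10 tested receptors for opioids, tachykinins, dopamine and adenosine outside the set, 3 had a higher estimate and 0 passed, with a median of −0.11. The neurokinin 3 receptor gene Tacr3 (−0.38) and the mu opioid receptor gene Oprm1 (−0.40) were lowest in Top2b-low replicate 3.

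**Figure D4:**
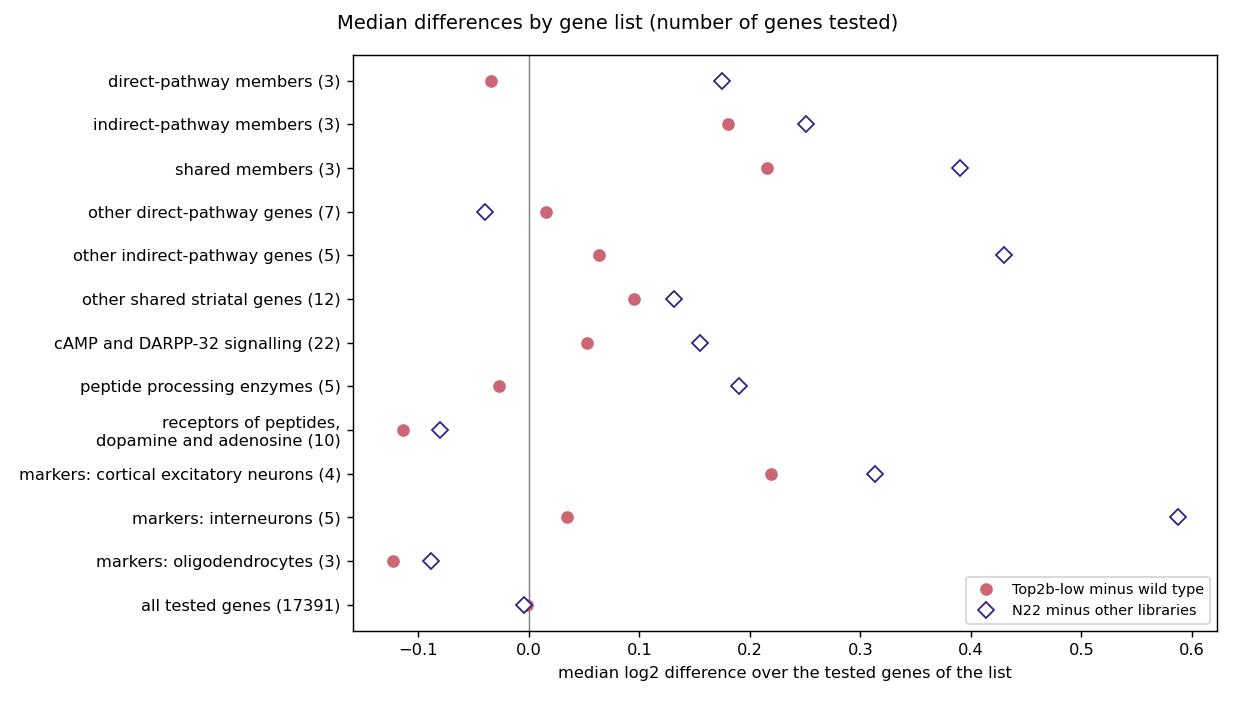
Median log2 difference over the tested genes of each list, for Top2b-low minus wild type (filled circles) and N22 minus other libraries (open diamonds), with the number of genes tested in brackets. No error is drawn because genes are not replicates. Medians for the 3 indirect-pathway genes (0.18) and the 3 shared genes of the set (0.22) lie near that of cortical excitatory markers (0.22) in the genotype comparison.

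All 4 cortical excitatory markers had a higher estimate in Top2b-low libraries (median 0.22, 0 passed) and their summed level ran from 18609 to 22373 normalised counts in wild type and 20440.5 to 26292 in Top2b-low libraries. All 3 oligodendrocyte markers (Mbp, Mog, Mag) had a lower estimate (median −0.12, 0 passed), with sums of 55662 to 59198 in wild type and 50556 to 56079.6 in Top2b-low libraries. None of these 7 markers was at 0 in a library. The part of such differences in tissue content in the striatal levels was not tested.

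Per kilobase of exon, Ppp1r1b and Penk were the most abundant of the set. Ppp1r1b averaged 1854 ± 323 and Penk 1636 ± 140.2 normalised counts per kilobase over the 6 libraries (SD, n = 6), and their ranges overlapped. Pde10a followed at 368 ± 52.2, with no overlap with the genes above or below it. The other 6 genes lay between 192.5 (Drd1) and 205 (Adora2a) with SDs of at most 45.4, so with these lengths, of all annotated exons joined, their order cannot be told apart. It can in part with the length of the longest transcript, where Rgs9 averaged 369 and Tac1 345, Pdyn 244 and Adora2a 242, and Drd2 202 and Drd1 195 normalised counts per kilobase. On that scale the range of Rgs9 (300.1 to 457) lay above that of Drd1 (179 to 217), and Ppp1r1b (2713) lay above Penk (1845) without overlap. The order of these genes thus depends on the length used, apart from Ppp1r1b, Penk and Pde10a in the first 3 places by mean.

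The 5 genes outside the set whose profile over the 6 libraries lay closest to the mean profile of the 9 were Slc25a28, Ddx39, Dctn2, Drc3 and Vps25. Their root mean square distance from it was 0.027 to 0.041 log2 units, among 5853 genes with a mean of at least 50 that varied at least as much as that profile (SD 0.17). The mean profile was 0.16 and 0.22 in the N22 libraries and −0.19 to 0.03 in the others. The 9 genes make up that mean profile, so their own closeness to it is partly built in. In that order Rgs9 ranked 226, Pde10a 314, Ppp1r1b 419, Tac1 539 and Adora2a 1106. Drd1, Pdyn, Drd2 and Penk varied less than the profile and have no rank. Of the further shared striatal genes Rasgrp2 ranked 56, Actn2 109 and Arpp21 318. Of the cortical markers Slc17a7 ranked 143, Tbr1 791 and Neurod6 1529, and Cux2 varied less than the profile and has no rank.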

How the data were processed

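The values the authors deposited are a signal, namely normalised counts for each gene in each of 6 libraries. RSEM and mm39 are named in the submitters' processing notes. For the tool version, aligner, annotation and strand setting, the sources used here say nothing. Every value was a whole multiple of the smallest value above 0 in its library (100% of values, tolerance 1e-06 reads), so whole-number counts, called reads, were recovered. The deposited values equalled those reads divided by DESeq2 size factors. A reference gene-name table gave symbols for 51498 of 78298 identifiers, and GENCODE vM21 (GRCm38) gave exon lengths.

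Genotypes were compared with limma 3.58.1 in R 4.3.3 (intensity trend, two-sided) on log2 of the deposited value plus a pseudocount of 1. Only the 17391 genes averaging 10 or more over the 6 libraries were tested. P-values were adjusted by Benjamini-Hochberg over all of them. Fold changes on this scale understate those of low genes. An N22 term, taken from the library names, and its interaction with genotype were fitted likewise. Recovered reads were tested with edgeR 4.0.16 and DESeq2 1.42.0 (no independent filtering). The fits were tested on simulated data.

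Groups and replicate numbers came from the titles. Deviations from the genotype means correlated at 0.33, 0.35 and 0.68 between libraries of the same number, so by rule the numbers were taken to pair them. The correlation across numbers was as high for wild type 1 with Top2b-low 2 (0.37). Of 130 listed genes 129 had a symbol in the table, and 3 further genes of the lists are not reported here.

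The 9 genes and the lists were chosen with earlier results of these data known. The genes named are Top2b, the 9 genes, up to 3 per list by smallest unadjusted p, marker genes, and the 5 nearest profiles. Ebf1, Zfp521, Sp9, Rasgrp2, Actn2 and Arpp21 were named after their values were seen.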

Additional observations from a re-analysis of the deposited data

How the results depend on the processing

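None of the 9 genes was called between genotypes in any of 21 alternatives with a test. With the replicate block 0 genes were called by limma and 0 by edgeR over the whole table, and DESeq2 called 13, none of them among the 9. With the N22 term DESeq2 called 14, none among the 9. These DESeq2 fits and the N22 term with edgeR were added after seeing the data. The block changed no other call. Leaving out single replicates gave 0 to 1 genes.

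Signs of the genotype difference held over all alternatives for Drd1 (0.16 to 0.21), Penk, Rgs9, Pde10a and Adora2a (0.07 to 0.42). Leaving out single replicates gave −0.10 to 0.053 for Pdyn, −0.15 to 0.090 for Tac1, −0.0020 to 0.20 for Drd2 and −0.10 to 0.21 for Ppp1r1b. Pdyn was 0.0049 in the 4 libraries outside N22 and Drd2 −0.072 in the N22 pair. The cause was not tested. The direct minus indirect difference between genotypes of −0.13 ran from −0.20 to −0.08 without single replicates and was −0.05 for Drd1 minus Adora2a.

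In the N22 contrast 4864 genes were called, 1963 higher and 2901 lower, against 2438 higher and 2377 lower with quantile normalization, which put Drd1 at 0.024. Without limma's intensity trend the counts were 2181 genes and 2 of the 9. Without single replicates they ran from 1711 to 4576 genes and from 2 to 6 of the 9, with 1945 genes without wild type replicate 3 and 1711 without Top2b-low replicate 3, which leave a single N22 library. The lowest value behind the 9 genes was 357 reads.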
